A study of Oryza sativa with 12 samples.

Results

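Abscisic acid (ABA) signalling genes were followed in rice (Oryza sativa) cells that had lost their sugar supply. The genes were those whose symbol or synonym in the gene annotation was PP2C, SAPK, ABA8ox, NCED, PYL or RCAR followed by a number, with or without Os in front. The annotation held 75 such genes, and 57 of them had a probe on the array, out of 15798 genes measured in all. These 57 were 45 of 60 PP2C genes, 10 of 10 SAPK genes, 1 of 3 ABA8ox genes (ABA8ox1) and the 1 PYL/RCAR gene (PYL5, also listed as PYL11 and RCAR5). The 1 NCED gene of the table, NCED3, had no probe.

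The cells were a suspension culture, a liquid culture of undifferentiated cells, with no genotype or cultivar given in the labels. Starved cells spent 12, 24 or 48 h in Murashige and Skoog medium lacking sucrose, and their control cells spent as long in that medium with 3% sucrose. In a further 12 h set the control medium also lacked sucrose but held 88 mM sorbitol, a sugar alcohol that served as the osmotic control. Each of the 4 groups had 3 arrays, and every array carried RNA of starved cells in Cy5 beside RNA of control cells in Cy3.

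ABA is a plant hormone of water deficit and seed maturation. It is made by a pathway in which the NCED enzymes catalyse a limiting step, and it is inactivated by hydroxylases such as the ABA8ox enzymes. Receptors of the PYL/RCAR family bind ABA and then block protein phosphatases of PP2C clade A, which otherwise keep kinases of the SnRK2 family, called SAPK in rice, inactive. The released kinases phosphorylate bZIP transcription factors that switch on genes such as the RAB and LEA genes. In rice all SAPK kinases are known to be activated by hyperosmotic stress, and SAPK8, SAPK9 and SAPK10 also by ABA. The other PP2C clades have many functions, a number of them outside ABA signalling.

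Most of the measured phosphatase genes were therefore not known ABA co-receptors. Of 9 clade A genes in the annotation 4 were measured (PP2C08, PP2C09, PP2C30 and PP2C51), beside 41 other PP2C genes. All values are log2 ratios of starved over control cells, so they show changes and no levels, and a mean ± SD is over 3 arrays (n = 3). A gene rose or fell where the limma fit over all 12 arrays gave a two-sided adjusted p below 0.05. In bulk cells, fewer cells of a kind and less RNA per cell cannot be told apart in such a ratio.

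Of the ABA signalling genes 3 of 56 rose and 1 fell at 12 h without sucrose, against the sucrose control. Their called share was 7.14%, and 9.09% of all features tested were called in that comparison (5.04% higher and 4.04% lower). At 24 h 7 of 57 rose and 3 fell, a share of 17.5% against 8.6% of all features (4.73% higher and 3.87% lower). With the replicate number as a block on the 24 and 48 h arrays, a fit chosen after seeing the data, 15 of 57 rose and 5 fell at 24 h, with 20.5% of all features called. At 48 h 15 of 56 rose and 6 fell, a share of 37.5% against 25.5% of all features (12.4% higher and 13.0% lower). The median log2 ratio of the genes was 0.21 at 12 h, 0.14 at 24 h and 0.25 at 48 h, while that of all features was 0.00, -0.00 and 0.01.

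Counted by sign alone, 15 genes lay above 0 on all 3 arrays at 12 h and 5 below, against 21.9% and 18.3% of all features. At 24 h these were 18 and 11 genes (21.6% and 20.4% of all features), at 48 h 19 and 12 (27.5% and 26.4%), and against sorbitol 27 and 16 (31.7% and 31.0%).

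Against sorbitol 1 of 57 rose, with 0.0515% of all features called. The sorbitol arrays varied far less than the others: the median SD of the genes was 0.12 there, against 0.45, 0.45 and 0.49 at 12, 24 and 48 h against sucrose. A limma fit on the 3 sorbitol arrays alone called 33 of the 57 genes (21 higher and 12 lower, 57.9%), with 35.9% of all features called (18.3% higher and 17.6% lower). The same kind of fit on the arrays of each sucrose group alone called 2, 0 and 6 genes at 12, 24 and 48 h, with 4.46%, 1.94% and 5.26% of all features called. In it 9, 15 and 23 genes had an unadjusted p below 0.05. The share of all features at that cut-off is not given here or below, so such counts cannot be set against all features.

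**Figure D1:**
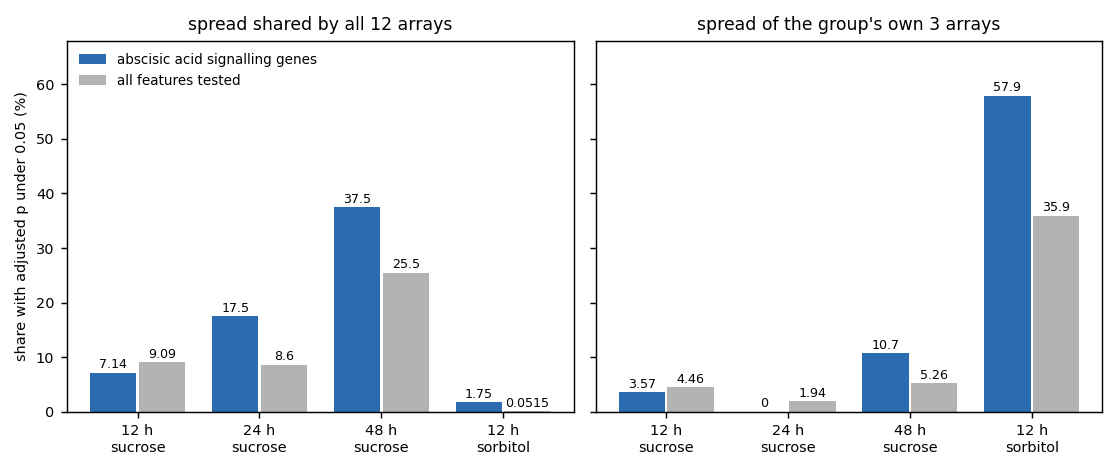
Share of the abscisic acid signalling genes (blue) and of all features tested (grey) with an adjusted p under 0.05, in percent, by comparison. With the spread shared by all 12 arrays (left) the genes' share goes from 7.14% at 12 h to 37.5% at 48 h against sucrose. That of all features goes from 9.09% to 25.5%. Against sorbitol the shares are 1.75% of the genes and 0.0515% of all features. With each group's own 3 arrays (right) they are 57.9% and 35.9% against sorbitol.

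Single arrays weighed on the counts. For 35 of 56 genes at 48 h and 33 of 57 at 24 h, replicate 2 had the largest ratio in size. The SD of log2 ratios over all probes was 1.26 on 48 h replicate 2 and 0.98 on 24 h replicate 2, the highest of their groups, and its part in these counts was not tested. Without 48 h replicate 2, 15 of the 21 calls at 48 h were lost, and the count was 6. Over all comparisons the genes received 37 calls, and 7 of them were kept when any single array was left out: SAPK6 at 12, 24 and 48 h, and SAPK4, SAPK7, PP2C07 and PP2C59 at 48 h.

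The receptor gene PYL5 (LOC4338104) rose late. Its ratios at 12 h against sucrose were -0.19, 0.18 and -0.01, on either side of 0. At 24 h they were 1.14, 1.14 and 0.19, a mean of 0.82 ± 0.55 (limma adjusted p = 0.0491), and at 48 h they were 1.13, 1.52 and 0.37, a mean of 1.01 ± 0.58 (adjusted p = 0.0096). All 6 ratios at the later times were above 0, and replicate 3 was the lowest each time. The sorbitol arrays gave -0.09, -0.18 and -0.14. The call at 24 h was lost in 9 of 12 fits that left out 1 array, and the call at 48 h without 48 h replicate 1 or 2. On the arrays of each group alone neither call was made. The ratio at 48 h exceeded that at 12 h by 1.01 (95% interval 0.29 to 1.74), and the groups did not overlap, but the adjusted p of this difference was 0.365.

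Among the SAPK kinases, SAPK6 (LOC4329630) had the largest mean ratios against sucrose. It stood at 2.25, 1.36 and 2.32 at 12 h, at 1.05, 2.71 and 1.92 at 24 h, and at 2.41, 2.27 and 2.05 at 48 h. All 9 ratios were above 1. The means were 1.98 ± 0.54 at 12 h (3.94-fold, adjusted p = 0.00135), 1.89 ± 0.83 at 24 h (3.72-fold, adjusted p = 0.00155) and 2.25 ± 0.18 at 48 h (4.74-fold, adjusted p = 0.000193). In the fits on each group alone the adjusted p was 0.00839 at 12 h, 0.0564 at 24 h and 0.0136 at 48 h. Against sorbitol its ratios were 0.39, 0.43 and 0.11, below each of the 9 against sucrose.

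SAPK7 (LOC4335877) went the other way. Its ratios against sucrose were -0.41, -0.86 and -0.07 at 12 h, -1.76, -0.60 and -0.80 at 24 h, and -1.62, -1.81 and -1.55 at 48 h. It fell at 24 h, by 1.05 ± 0.62 on the log2 scale (adjusted p = 0.0135), and at 48 h, by 1.66 ± 0.13 or 3.16-fold (adjusted p = 0.000419, and 0.0212 on the 48 h arrays alone). The call at 24 h was lost without 24 h replicate 1. All 12 of its ratios were below 0, the sorbitol ones being -0.25, -0.45 and -0.60. The 48 h ratios lay below every 12 h ratio, with a difference of -1.21 (95% interval -1.91 to -0.52), whose adjusted p was 0.279.

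SAPK4 (LOC4324934), a kinase gene linked to salt stress in rice, fell at 48 h. Its ratios there were -1.24, -1.60 and -0.79, a mean of -1.21 ± 0.40 (adjusted p = 0.00253, and 0.0573 on the 48 h arrays alone), and its 2 probes gave -1.32 and -1.10. At 12 h it had -0.68, -0.49 and 0.15, and at 24 h -0.99, -0.84 and -0.19. Against sorbitol the signs were opposite, with 0.29, 0.54 and 0.42. In the kinase subclass known as I, to which SAPK4 to SAPK7 belong, SAPK6 thus rose, SAPK4 and SAPK7 fell, and SAPK5 could not be tested at 12 or 48 h because a value was blank on replicate 2. The values of SAPK5 at 24 h were -0.04, -0.61 and -0.70.

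SAPK2 (LOC4343944), of subclass II, rose at 48 h with ratios of 0.26, 1.84 and 0.91, a mean of 1.00 ± 0.80 (adjusted p = 0.0199). Without 48 h replicate 2 this call was lost, and it was not made on the 48 h arrays alone. Its other ratios against sucrose were 0.57, 0.45 and 1.10 at 12 h and 0.06, 1.12 and 0.58 at 24 h. All 9 were above 0, and the sorbitol ratios of -0.09, -0.37 and -0.30 were all below 0.

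The kinases known to be activated by ABA itself, SAPK8, SAPK9 and SAPK10, were not called in any comparison. At 12, 24 and 48 h against sucrose, limma gave 1, 1 and 2 of the 3 an unadjusted p below 0.05, with no share of all features at hand. Their means ran from 0.33 to 0.57 at 12 h, from -0.22 to 0.57 at 24 h and from -0.36 to 1.00 at 48 h. The highest of these, SAPK9 at 48 h, came from ratios of 0.34, 2.53 and 0.13, of which replicate 2 stood apart. SAPK10 had 0.57 at 12 h (95% interval 0.09 to 1.05), 0.57 at 24 h and 0.56 at 48 h, with adjusted p-values of 0.129, 0.12 and 0.0798. The intervals of SAPK8 left room for changes of up to 0.96 in size at 12 h. SAPK1 and SAPK3 were not called either. SAPK1 at 12 h had 0.77, 0.21 and -2.05, and its SD of 1.49 was the largest of any of the genes at that time.

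**Figure D2:**
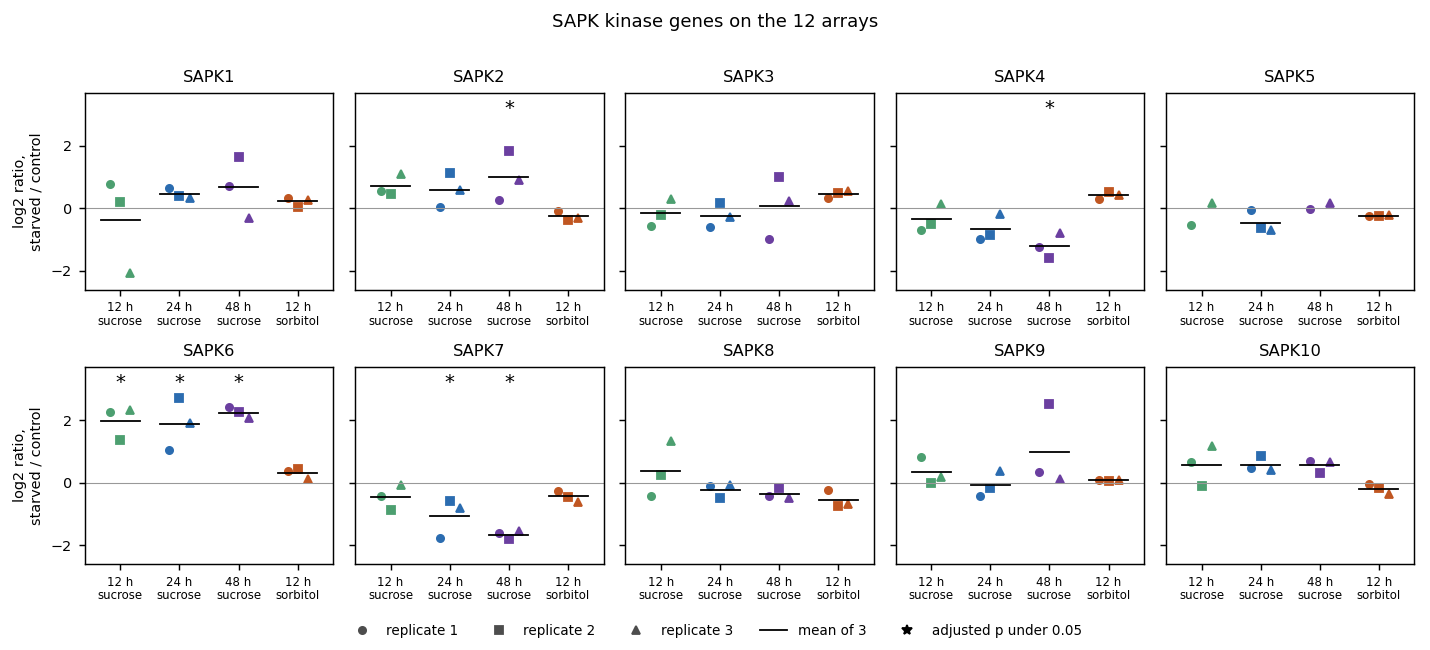
Log2 ratios of the 10 SAPK genes on each of the 12 arrays, starved over control cells, by time and control. Points are arrays, lines are means of 3 and asterisks mark an adjusted p under 0.05 in the fit over all arrays. SAPK6 lies above 1 on all 9 sucrose arrays and SAPK7 below 0 on all 12 arrays, and 2 arrays have no value for SAPK5.

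The 4 measured clade A phosphatase genes, all named here because they are few, had means on either side of 0 against sucrose. PP2C09 (LOC4327465), known in rice as a negative regulator of ABA signalling, fell at 24 h. Its ratios were -1.43, -1.65 and -0.47 there, a mean of -1.18 ± 0.63 (adjusted p = 0.0424, and 0.111 on the 24 h arrays alone). The call was lost in 6 of 12 fits that left out 1 array. At 12 h it had -1.01, -0.58 and 0.37, and at 48 h -1.19, -0.48 and 0.44, so replicate 3 had the opposite sign at both times.

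PP2C30 (LOC4332374) had the largest ratio of any of the genes on a single array, 3.85 on 48 h replicate 2. The other 48 h arrays gave 1.09 and 0.19, and the mean of 1.71 ± 1.91 did not pass (adjusted p = 0.0575). At 24 h the pattern was alike, with 2.87 on replicate 2 against 0.26 and 0.12, and at 12 h the ratios were 1.58, 0.20 and 0.73. All 12 of its ratios were above 0. PP2C08 (LOC4324182) and PP2C51 (LOC4339671) had means between -0.56 and -0.11 at the 3 times against sucrose, and neither was called.

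Against sorbitol all 4 clade A means were above 0. PP2C30 had 1.17, 1.73 and 1.84, a mean of 1.58 ± 0.36 or 2.99-fold. PP2C08 had 0.88, 1.10 and 0.84, a mean of 0.94 ± 0.14. PP2C09 had 0.23, 0.66 and 0.64, and PP2C51 had 0.06, 0.01 and 0.12. Not one of the 4 was called in the fit over all arrays (unadjusted p below 0.05 for 2, a cut-off without an all-feature share here). The limma fit on the sorbitol arrays alone called 3 of them, with adjusted p = 1.41e-05 for PP2C30 and 3.96e-05 for PP2C08. That fit called 35.9% of all features (18.3% higher), 22 of the 41 other PP2C genes (14 higher) and 7 of the 10 SAPK genes (3 higher). The median over the 4 was 0.72, against 0.00 over all features. Every PP2C08 ratio against sorbitol exceeded every one against sucrose at 12 h. That difference, sucrose minus sorbitol, was -1.12 (95% interval -1.77 to -0.48), with an adjusted p of 0.0912.

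**Figure D3:**
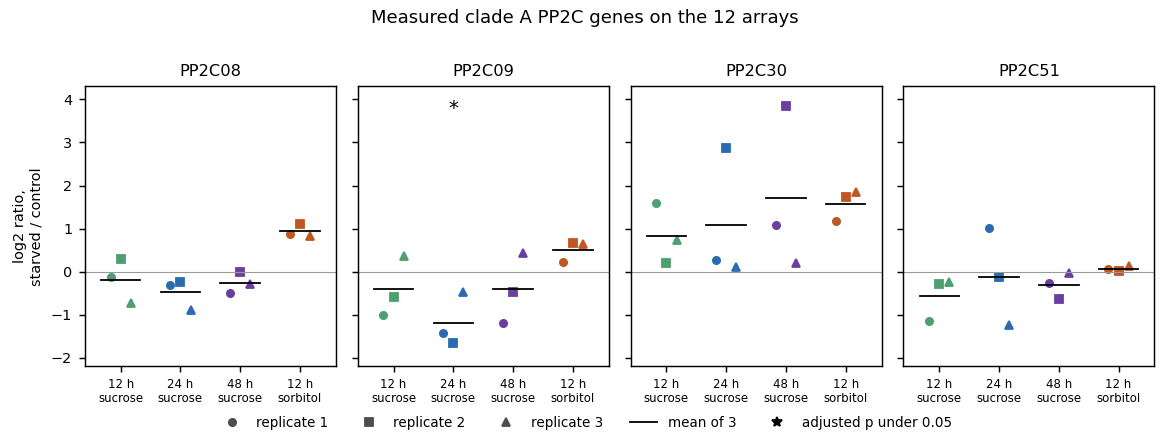
Log2 ratios of the 4 measured clade A PP2C genes on each of the 12 arrays, with means of 3 as lines and an asterisk at an adjusted p under 0.05. PP2C08 and PP2C30 lie above 0.8 on all 3 sorbitol arrays, and replicate 2 gives PP2C30 its highest ratios at 24 and 48 h, 2.87 and 3.85.

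Of the 41 PP2C genes outside clade A, 2 rose at 12 h and none fell, 5 rose at 24 h and none fell, and 12 rose and 3 fell at 48 h. Their called shares were 4.88%, 12.2% and 36.6%, against 9.09%, 8.6% and 25.5% of all features, so that at 12 h the share was below that of all features. On the arrays of each group alone limma called 0, 0 and 4 of the 41, with 4.46%, 1.94% and 5.26% of all features called. The 4 at 48 h were PP2C02, PP2C12, PP2C29 and PP2C59. In the fit over all arrays PP2C10 (LOC4328306) and PP2C14 (LOC4329347) were the 2 of the 41 that rose at all 3 times. PP2C10 had 1.71, 1.37 and 0.53 at 12 h (mean 1.20 ± 0.61, adjusted p = 0.00981), 0.70, 1.35 and 0.94 at 24 h (1.00 ± 0.33, 0.0242), and 1.25, 1.21 and 0.43 at 48 h (0.96 ± 0.46, 0.0128). PP2C14 had 0.46, 0.91 and 1.38 at 12 h (0.92 ± 0.46, 0.0337), 1.03, 1.12 and 0.76 at 24 h (0.97 ± 0.19, 0.0269), and 1.73, 0.39 and 0.91 at 48 h (1.01 ± 0.67, 0.0104). Their means against sucrose lay between 0.92 and 1.20, with no sucrose array below 0. Their sorbitol ratios lay below every 12 h sucrose ratio: 0.40, 0.30 and 0.11 for PP2C10, and 0.11, 0.08 and -0.07 for PP2C14. The PP2C14 call at 12 h was lost in 6 of 12 fits without 1 array. Its 24 h call was lost without 24 h replicate 1 or 2, and its 48 h call without 48 h replicate 1. Each PP2C10 call was lost without replicate 1 or 2 of its own group. On the arrays of each group alone limma called neither gene at 12, 24 or 48 h. The adjusted p-values there were 0.0588, 0.0999 and 0.0931 for PP2C10, and 0.112, 0.0879 and 0.115 for PP2C14.

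PP2C59 (LOC4341949) was the gene called against sorbitol, and it also rose against sucrose. Its sorbitol ratios were 1.30, 1.73 and 1.89, a mean of 1.64 ± 0.30 or 3.11-fold (adjusted p = 0.0458). That call was kept in 2 of 12 fits without 1 array, and the fit on the sorbitol arrays alone gave an adjusted p = 6.97e-06. Against sucrose it had 0.73, 0.50 and 1.27 at 12 h, 0.62, 1.68 and 0.95 at 24 h (1.08 ± 0.54, adjusted p = 0.0205), and 1.06, 2.04 and 1.26 at 48 h (1.46 ± 0.52, 0.00179). All 12 ratios were above 0, the lowest at 0.50. The call at 48 h also held on the 48 h arrays alone (adjusted p = 0.046).

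PP2C12 (LOC4328768) reached the highest mean of all the genes, 2.36 ± 1.14 at 48 h, or 5.15-fold (adjusted p = 0.0037, and 0.042 on the 48 h arrays alone). Its arrays were spread out: 2.59, 1.26 and 0.27 at 12 h, 2.12, 2.81 and 0.86 at 24 h (1.93 ± 0.99, adjusted p = 0.0252), and 2.83, 3.19 and 1.07 at 48 h. Replicate 3 was the lowest each time, and all 9 ratios were above 0. Its 2 probes gave 2.68 and 2.05 at 48 h. The PP2C12 call at 48 h was lost without 48 h replicate 2, and that at 24 h without 24 h replicate 1 or 2. On the 24 h arrays alone limma gave PP2C12 an adjusted p of 0.0693. Against sorbitol its ratios were 0.16, 0.24 and 0.53.

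PP2C61 (LOC4342246) rose at 24 h with 0.97, 1.62 and 0.57 (1.05 ± 0.53, adjusted p = 0.00768), and at 48 h with 0.90, 0.76 and 0.56 (0.74 ± 0.17, 0.0209). At 12 h it had 0.29, 0.53 and 0.91, and against sorbitol 0.25, 0.19 and 0.36. All 12 ratios were above 0.

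A further 7 PP2C genes rose at 48 h and were called at no other time. The largest of these rises was that of PP2C29 (LOC4332004), with 1.42, 2.94 and 1.33 (1.90 ± 0.91, 3.72-fold, adjusted p = 0.0164, and 0.0483 on the 48 h arrays alone). Before that its arrays disagreed in sign, with 1.44, 0.40 and -0.52 at 12 h and 0.73, 2.82 and -0.30 at 24 h, and against sorbitol it had 0.58, 0.70 and 0.78. The PP2C29 call was lost without 48 h replicate 2. PP2C34 (LOC4334191) had 1.79, 2.41 and -0.04 at 48 h (1.39 ± 1.27, 0.0244), so replicate 3 showed no change. The same replicate was the lowest at 12 h (1.10, 1.29 and 0.13) and 24 h (1.24, 1.42 and 0.09), and the sorbitol ratios were below 0, at -0.16, -0.49 and -0.78. Of the 7 genes only PP2C29 and PP2C02 were called by limma on the 48 h arrays alone. The adjusted p there was 0.134 for PP2C34, 0.11 for PP2C45 and 0.133 for PP2C44.

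PP2C02 (LOC4326717) had close ratios of 1.14, 1.41 and 1.14 at 48 h (1.23 ± 0.16, adjusted p = 0.00686, and 0.0429 on the 48 h arrays alone). Against sorbitol it had 0.89, 0.90 and 1.11. At 12 h against sucrose it stood at 0.17, -0.13 and 0.52, and at 24 h at 0.35, 1.71 and -0.05. The 12 h ratios lay below all those at 48 h, by 1.04 on average (95% interval 0.21 to 1.88), with an adjusted p of 0.409 for that difference. The PP2C02 call at 48 h was lost without 48 h replicate 2. PP2C47 (LOC4337723) had 1.25, 1.57 and 0.57 at 48 h (1.13 ± 0.51, 0.00938), after 0.66, 0.80 and 0.05 at 12 h and 0.88, 1.30 and -0.06 at 24 h. Its sorbitol ratios were 0.40, 0.22 and 0.54, so 11 of 12 arrays were above 0.

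PP2C45 (LOC4337276) rose at 48 h with 0.48, 1.57 and 0.80 (0.95 ± 0.56, adjusted p = 0.0297). Its 12 h ratios, 0.49, 1.15 and -0.41, and sorbitol ratios, 0.37, -0.29 and -0.37, differed in sign between arrays, and at 24 h it had 0.45, 0.20 and 0.72. PP2C44 (LOC4336940) rose with 0.29, 1.29 and 0.87 (0.82 ± 0.50, 0.0142), after 0.43, 0.13 and 0.60 at 12 h and 0.20, 0.80 and 0.41 at 24 h. With 0.35, 0.12 and 0.49 against sorbitol, all 12 of its ratios were above 0. PP2C75 (LOC9268201) rose with 1.13, 0.82 and 0.24 (0.73 ± 0.45, 0.0188), but 1 of its 2 probes was blank on 2 of the 3 arrays at 48 h, so its average mixed probes. The probe with all values had a mean of 0.90 there. The averages were 0.41, -0.06 and 0.30 at 12 h, 0.09, 0.31 and -0.23 at 24 h, and -0.20, -0.06 and -0.35 against sorbitol.

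The 3 PP2C genes that fell at 48 h were PP2C07, PP2C21 and PP2C71. On the 48 h arrays alone limma called none of the 3, with an adjusted p of 0.0652 for PP2C07 and 0.171 for PP2C21. PP2C07 (LOC9269413) had -1.20, -1.46 and -0.71 (-1.12 ± 0.38, adjusted p = 0.00275), after -0.50, -0.22 and -0.81 at 12 h and -0.93, -0.52 and -0.12 at 24 h. All 9 were below 0, and its sorbitol ratios of 0.25, 0.56 and 0.12 were all above 0. PP2C71 (LOC4348468) had -1.06, -1.98 and -0.51 (-1.18 ± 0.74, 0.0237), after -1.85, -0.69 and 0.10 at 12 h and -0.86, -1.31 and -0.32 at 24 h. Its sorbitol ratios were -0.40, -0.47 and -0.38, so 11 of 12 arrays were below 0. PP2C21 (LOC4329930) had -1.37, -0.84 and -0.12 (-0.78 ± 0.63, 0.0353), and its 2 probes gave -0.43 and -1.13. At 12 h it had -0.39, -0.16 and -0.13, at 24 h -0.57, -1.13 and 0.00, and against sorbitol 0.06, -0.08 and -0.16.

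**Figure D4:**
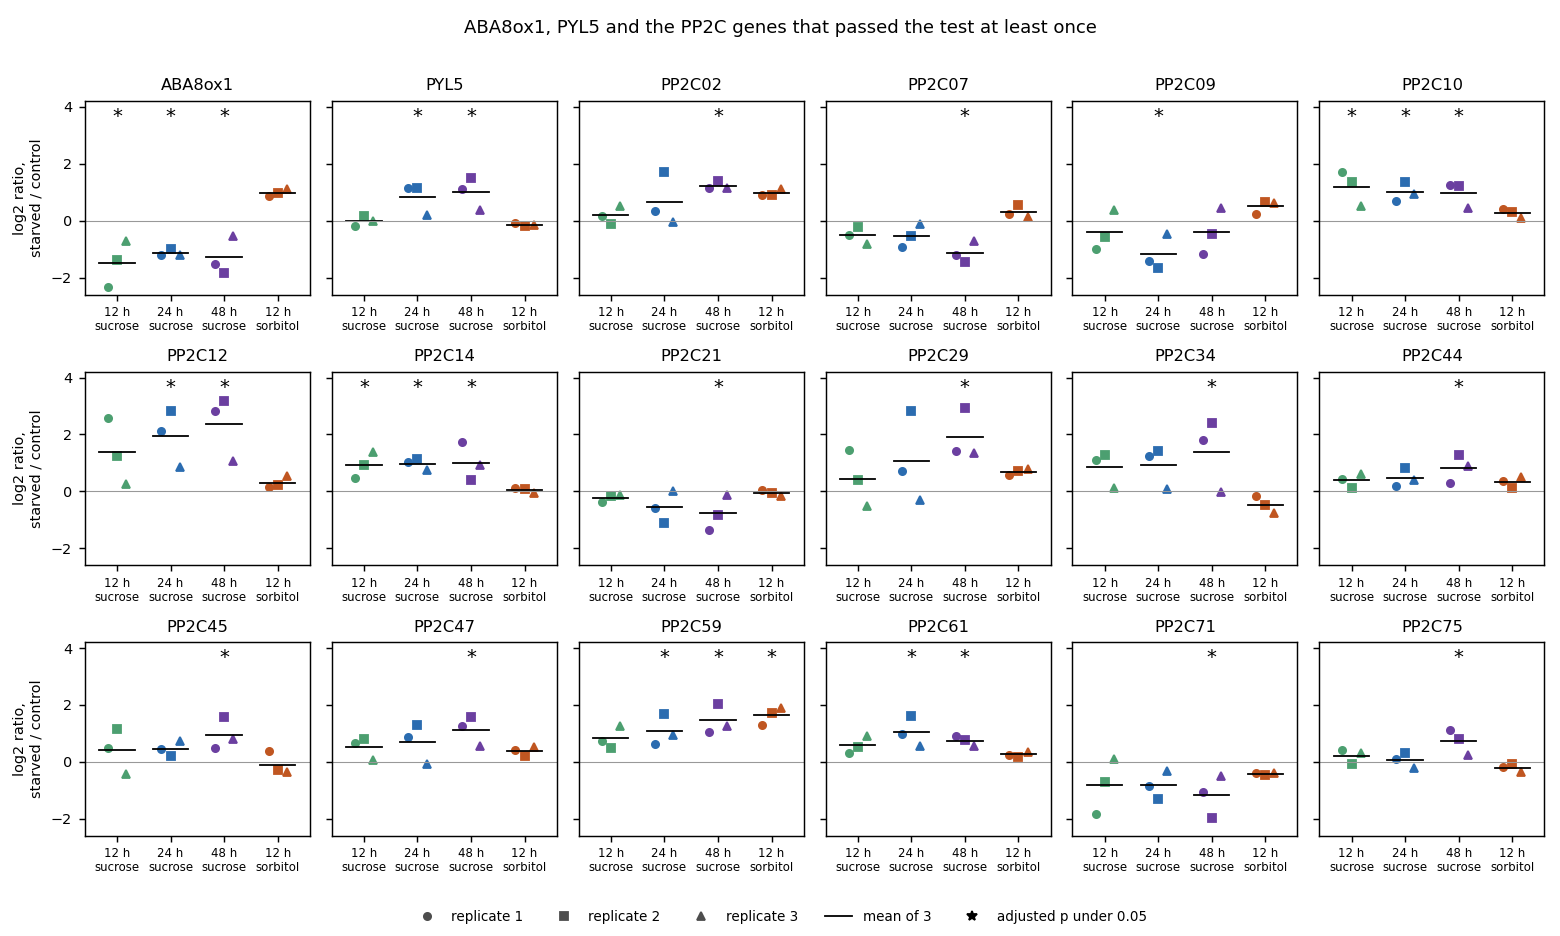
Log2 ratios on each of the 12 arrays for ABA8ox1, PYL5 and the 16 PP2C genes with an adjusted p under 0.05 in at least 1 of the 4 groups (asterisks), with means of 3 as lines. ABA8ox1 lies below 0 on the 9 sucrose arrays and above 0 on the 3 sorbitol arrays, and PP2C59 lies above 0 on all 12.

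ABA8ox1 (LOC9269675), a gene of ABA breakdown, was the gene called for a difference between the controls. Against sucrose it had -2.34, -1.40 and -0.72 at 12 h, -1.20, -0.99 and -1.21 at 24 h, and -1.51, -1.84 and -0.52 at 48 h. It fell at each time, by 1.49 ± 0.81 (2.80-fold, adjusted p = 0.00811), 1.13 ± 0.13 (adjusted p = 0.0298) and 1.29 ± 0.69 (adjusted p = 0.00709) on the log2 scale. Each of these calls was lost without certain arrays: the 12 h call without 12 h replicate 1, the 24 h call without any 1 of the 24 h or sorbitol arrays, and the 48 h call without 48 h replicate 2. On the arrays of each group alone the adjusted p was 0.0409, 0.0604 and 0.0755.

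The 3 sorbitol arrays gave ABA8ox1 0.86, 0.97 and 1.10, a mean of 0.98 ± 0.12, so all 3 were above 0 where all 9 sucrose arrays were below. This mean did not pass in the fit over all arrays (adjusted p = 0.466) and passed on the sorbitol arrays alone (adjusted p = 2.92e-05). The 12 h ratio against sucrose minus that against sorbitol was -2.46 (95% interval -3.34 to -1.59, adjusted p = 0.014, and 0.0163 on those 6 arrays alone). This difference is sorbitol over sucrose cells, provided that the starved cells of both sets were alike. The call was lost without 12 h sucrose replicate 1 or any of the sorbitol arrays. The sign against sorbitol rests on the dye labels alone. With that sign turned, the difference is -0.51.

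For the arrays against sucrose, the amylase genes RAmy3D and RAmy3E, known to be induced by sugar starvation, bear on the direction. Their mean log2 ratios were 2.34 and 2.93 at 12 h, 2.11 and 3.17 at 24 h, and 2.62 and 4.74 at 48 h. Against sorbitol, where both cell samples lacked sucrose, they were 0.03 and -0.28. They give no direction there, and every sign against sorbitol given here depends on the dye labels.

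Over all 56 genes tested in both 12 h sets, ABA8ox1 alone was called for the difference between the controls (1 of 56, with 1.46% of all features called, 1.0% higher and 0.455% lower). The unadjusted limma p was below 0.05 for 13 of the 56, and the share of all features at that cut-off is not given. On those 6 arrays alone 2 genes were called, with 4.66% of all features. In 9 genes every sucrose ratio exceeded every sorbitol ratio, and in 9 the reverse held, as did 16.2% and 14.4% of all features. SAPK6 had a difference of 1.67 (95% interval 0.83 to 2.51), with an adjusted p of 0.0555 over all arrays and 0.0226 on those 6 arrays alone. For PP2C34 it was 1.31 (95% interval 0.09 to 2.54, adjusted p = 0.311).

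These values too depend on the sign of the sorbitol ratios. With that sign turned, a fit chosen after seeing the data, limma called 3 of the 56 genes, all higher against sucrose, with 4.1% of all features called. They were PP2C59 with 2.47 (adjusted p = 0.00492), SAPK6 with 2.29 (adjusted p = 0.00955) and PP2C10 with 1.47 (adjusted p = 0.0329), while ABA8ox1 was not called (adjusted p = 0.525) and PP2C34 had 0.36. The ratios then did not overlap for 16 genes that were higher against sucrose and 5 that were lower, against 19.5% and 16.4% of all features.

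By sign at 12 h, as the dye labels give it, ABA8ox1, PP2C07 and PP2C51 were below 0 on all 3 sucrose arrays and above 0 on all 3 sorbitol arrays, 3 of 56 against 4.35% of all features. PP2C34, PP2C57 and SAPK2 showed the opposite, 3 of 56 against 5.49%. On all 6 arrays, 9 genes were above 0 (PP2C10, PP2C12, PP2C30, PP2C35, PP2C44, PP2C47, PP2C59, PP2C61 and SAPK6), and SAPK7 alone was below 0. For all features these shares were 9.23% and 6.87%. Turning the sorbitol sign would swap these patterns in pairs, so that ABA8ox1, PP2C07 and PP2C51 would be below 0 on all 6 arrays and SAPK7 would have opposite signs.

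**Figure D5:**
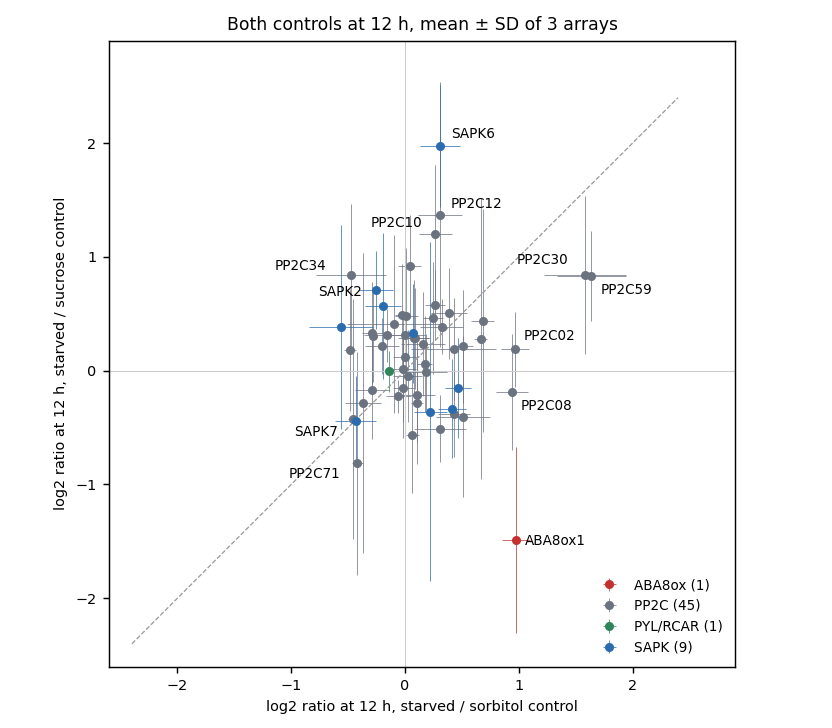
Mean log2 ratio at 12 h against the sucrose control (vertical axis) and against the sorbitol control (horizontal axis) for the 56 genes with all 6 values, with SDs of 3 arrays as bars and equal values on the dashed line. ABA8ox1 lies alone at the lower right (-1.49 and 0.98), SAPK6 at the top (1.98 and 0.31), and PP2C30 and PP2C59 at the right (1.58 and 1.64 against sorbitol).

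In the comparison of 48 h with 12 h against sucrose, limma called none of the 56 genes, with 0.00594% of all features called. An unadjusted p below 0.05 was found for 6 genes over all arrays and for 5 in the fit on those 6 arrays alone, which also called none. Shares of all features at that cut-off are not given, and these fits took no account of a pairing between arrays of both times. The calls at 48 h thus outnumbered those at 12 h without a called difference between these times. The ratios did not overlap for PP2C02 and PYL5, which were higher at 48 h, and for SAPK4, SAPK7 and PP2C57, which were lower. Among all features 4.81% were higher and 6.25% lower without overlap. All 4 genes called at 12 h, ABA8ox1, PP2C10, PP2C14 and SAPK6, were also called at 24 and 48 h.

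The other 35 genes with a probe were called in no comparison. They were SAPK1, SAPK3, SAPK5, SAPK8, SAPK9, SAPK10 and 29 PP2C genes. Of the 57 genes, 19 were called neither in the fit over all arrays nor in any fit on the arrays of the groups alone. On the sorbitol arrays alone the lowest mean was that of SAPK8, -0.24, -0.76 and -0.69 (-0.56 ± 0.28), with an adjusted p = 0.0025 there and 0.775 over all arrays.

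Other genes of the pathway were read from a list by symbol, written with earlier results of these data known. Its counts beside those of all features are therefore no independent test. Of 9 measured genes of the ABA response, 3 rose at 12 h, 3 at 24 h and 5 of 8 at 48 h, and none fell. Of all features 9.09%, 8.6% and 25.5% were called at these times (5.04%, 4.73% and 12.4% higher). RAB16B, a dehydrin gene induced by ABA, had 2.48, 2.82 and 3.47 at 12 h, 3.38, 3.37 and 3.27 at 24 h, and 4.36, 4.93 and 4.90 at 48 h (4.73 ± 0.32, adjusted p = 2.52e-07). Against sorbitol it had 1.24, 1.30 and 0.81. All 12 ratios were above 0, the sorbitol ones the lowest.

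The aquaporin gene TIP3;1, of seed vacuoles, rose to 3.81 ± 0.46 at 48 h (adjusted p = 2.32e-05), and the dehydrin gene rab25 to 3.55 ± 1.60 (adjusted p = 0.000379). Both also rose at 12 and 24 h, and the rab25 call at 12 h was kept in 7 of 12 fits without 1 array. The genes salT (2.16 ± 0.63, adjusted p = 0.00243) and LIP9 (1.32 ± 0.99, adjusted p = 0.0237) rose at 48 h, and the LIP9 call was lost without 48 h replicate 2 or 3. RAB16C and RAB16D, of the same gene family as RAB16B, lay between -0.13 and 0.20 in mean against sucrose and were not called. The difference between the 12 h controls passed for RAB16B, 1.81 (adjusted p = 0.0136), and TIP3;1, 2.43 (adjusted p = 0.015). Both calls were lost without any 1 of the sorbitol arrays, and that of TIP3;1 also without 12 h sucrose replicate 3. On those 6 arrays alone the adjusted p-values were 0.0192 and 0.00651. For both, as for SAPK6, the ratio against sucrose was the higher.

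Of 3 response factors, ABF2 (also named bZIP23), a bZIP activator of ABA response genes, rose at 24 h with 0.86, 1.87 and 0.71 (1.15 ± 0.63, adjusted p = 0.0374) and at 48 h with 1.23, 2.87 and 1.99 (2.03 ± 0.82, adjusted p = 0.000791). The ABF2 call at 24 h was kept in 7 of 12 fits without 1 array (adjusted p = 0.117 on the 24 h arrays alone), and that at 48 h in all 12. VP1, a seed maturation factor, fell at 48 h with -0.47, -1.36 and -1.19 (-1.01 ± 0.47, adjusted p = 0.00391, and 0.0873 on the 48 h arrays alone). TRAB1, another bZIP factor, had means of 0.28, 0.25 and 0.38 and was not called. Of 4 genes of the carotenoid steps that lead to ABA, PSY1 rose at 12 h (1.03 ± 0.23, adjusted p = 0.025) and PSY2 fell at 48 h (-1.14 ± 0.74, adjusted p = 0.0159), both phytoene synthase genes. Each of these calls was lost without replicate 1 or 2 of its own group, and on the arrays of each group alone the adjusted p was 0.0612 for PSY1 and 0.1 for PSY2. Beside the calls among these factors and carotenoid genes, 9.09%, 8.6% and 25.5% of all features were called at 12, 24 and 48 h.

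Ratios within an array do not show which cell type was present. Of 8 measured storage protein and starch genes of seed tissue, 7 were tested at 12 and 48 h. GLB1 fell at 48 h with -0.21, -1.84 and -0.31 (adjusted p = 0.047), a call kept in 2 of 12 fits without 1 array and not made on the 48 h arrays alone (adjusted p = 0.239). No other gene of the list was called at any time, while 25.5% of all features were called at 48 h. Their median ratio was 0.02, -0.10 and -0.03 at 12, 24 and 48 h and 0.02 against sorbitol. Of the 2 measured genes of green tissue, CAB1R was tested in each comparison and not called, and CAB2R against sorbitol alone, where it was not called.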

How the data were processed

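Values were those of the authors' deposited table, 21495 probes by 12 arrays, taken from the values themselves as natural log ratios (ln) of the 2 channels of an array. Their software, background correction and centring are not given in the sources used here, nor is the order of the channels, and starved (Cy5) over control (Cy3) follows the dyes in the labels. On 5 arrays, the 3 sorbitol arrays, 12 h replicate 3 and 24 h replicate 3, few values could show the log base, and the base found on the other arrays was used. Column medians were between -0.03 and 0.11 on the log2 scale, blanks reached 13.6% (48 h replicate 2), and nothing was filled in. Signal over background was not known, and the number of arrays limits the precision.

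Ratios were turned to log2. Probes were named through GEO's platform annotation (17839 probes with 1 gene, 21 with several and 3635 without), and all gene IDs (100%) were found in a RefSeq gene table. Probes of a gene were averaged, skipping blanks. Of the ABA signalling genes 49 had 1 probe and 8 had 2, and related genes may share hybridisation, since probe sequences were not used here. Coordinates and sequences were not used either.

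With limma 3.58.1 (R 4.3.3), lmFit and eBayes were fitted to all features with 4 group means over the 12 arrays, on features with a value on every array of the groups compared. Two-sided p-values were adjusted by Benjamini-Hochberg over every feature of a comparison, and 0.05 was the threshold. Intervals are 95%. The script was tested on simulated data. Tables used Python 3.11.15, pandas 2.3.3 and numpy 2.4.6, and figures matplotlib 3.10.9. Alternatives were each group's own arrays, the sorbitol arrays left out, median centring, quantile normalization, array weights, values taken as log2, a value on at least 2 arrays, single probes, a replicate block and each array left out.

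Over all probes the deviations of same-numbered arrays from their group means correlated between 24 and 48 h (0.42 to 0.56 in the 3 pairs, against -0.42 to -0.10 for other pairs). They did not in every pair with 12 h (-0.19 to 0.46) or in any with sorbitol (-0.20 to 0.02). The numbers thus pair the 24 and 48 h arrays, as a hint from the data that the labels do not state. Between 12 h and the later times, replicates 1 and 2 correlated crosswise. Replicate 1 of 12 h gave 0.39 with 24 h replicate 2 and 0.36 with 48 h replicate 2. Replicate 2 of 12 h gave 0.52 and 0.33 with replicate 1 of those times. Replicate 3 gave 0.44 and 0.46 with replicate 3, and all other pairs of 12 h with those times were below 0. No fit used this crosswise pairing. A block on the 24 and 48 h arrays and the turned sign of the sorbitol ratios were alternatives chosen after seeing the data.

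The genes, lists, clade A and kinase subclasses were chosen by name, with earlier results of these data known. Full values are given for called genes. The 2 other ABA8ox genes, NCED3 and 15 PP2C genes had no probe and were not analysed here. The labels do not say that arrays came from separate cultures, so p-values cover array-to-array spread alone, possibly technical. All arrays had 1 dye orientation, so the dye bias of a probe stays in its mean ratio.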

Additional observations from a re-analysis of the deposited data

Results flagged for a closer look

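ABA8ox1 was singled out because its effect differed between the 12 h controls. Its ratio against sucrose minus that against sorbitol was -2.46 (limma adjusted p = 0.014), with all 3 sucrose arrays below 0 and all 3 sorbitol arrays above 0. With the sign of the sorbitol ratios turned, the difference was -0.51 and was not called (adjusted p = 0.525).

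PP2C57 was singled out because its arrays had opposite signs at 2 times against sucrose. They stood at 0.09, 0.29 and 0.55 at 12 h and at -0.47, -1.05 and -0.30 at 24 h, so that the means were 0.92 apart. This difference was not tested, and the gene was called at neither time.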

How the results depend on the processing

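On the arrays of the groups compared alone, limma called 2 genes at 12 h (4 with the shared spread), 0 at 24 h (10) and 6 at 48 h (21) against sucrose, 33 against sorbitol (1) and 2 for the difference between the controls (1). Without the sorbitol arrays 24 h had 2. Quantile normalization gave 7 at 12 h, 22 against sorbitol and 14 for the difference between the controls. Array weights gave 24 at 24 h, 33 against sorbitol and 8 for that difference. Single probes gave 0 against sorbitol. Beside the main fit, shares of all features are given above only for the groups' own arrays, the 24 h block and the turned sign. Counts of the ABA signalling genes under other settings thus cannot be set against all features. With 1 array left out, the 12 h calls against sucrose numbered 1 to 5, the 24 h calls 2 to 13, the 48 h calls 6 to 23, the sorbitol calls 0 to 1, those of the difference between the controls 0 to 2 and those of 48 h minus 12 h 0 throughout. Fits on the groups' own arrays gave fewer calls against sucrose and more against sorbitol. The median SD of the genes was 0.12 against sorbitol, and 0.45, 0.45 and 0.49 at 12, 24 and 48 h against sucrose. For these differences in count the cause was not tested. A replicate block over all arrays gave 7 calls at 12 h and kept all 37 calls of single genes. It went by the replicate numbers, by which replicates 1 and 2 at 12 h and the sorbitol arrays did not correlate with the other groups. It therefore cannot show how the calls would fare under another pairing. A block on the 24 and 48 h arrays alone, chosen after seeing the data, gave 20 calls at 24 h and 26 at 48 h and kept all 31 calls of those times. Turning the sorbitol sign, also chosen after seeing the data, gave 3 calls for the difference between the controls and ended that of ABA8ox1 (-0.51). Of these 37, 36 were kept under median centring, 35 with single probes, 33 under quantile normalization, 31 with array weights, 19 of 35 without the sorbitol arrays and 10 on the groups' own arrays. None of the 37 calls changed direction in the alternatives fitted for it, but the turned sign was fitted for the difference between the controls alone. With that sign turned, the PP2C59 mean against sorbitol is -1.64, opposite to its call. Its difference between the controls goes from -0.81 to 2.47. Signal over background was unknown, so dim probes could not be set apart.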
